A study of Mus musculus with 8 samples.

Results

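The transcripts described here encode chains of collagen IV (Col4a1, Col4a2, Col4a3, Col4a4 and Col4a5) and of the epithelial laminins (Lama3, Lama5, Lamb2 and Lamb3), the proteins from which basement membranes are built. They were chosen by gene symbol: 15 spots of the array carried the symbol of 1 of these genes, and the brightest spot of each gene stood for it, which gave 9 genes of the 24306 measured. All 9 were above the median spot (5.18 on the log2 scale) in their mean over the arrays, so no filter on dim spots removed a member.

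Alveolar epithelial cells of type I (AECI), the flat cells of gas exchange, and type II (AECII), the cuboidal cells that secrete surfactant, were sorted by FACS out of E18.5 mouse lungs. The experimental samples are titled as Fgfr2bflox, a floxed allele of the receptor isoform Fgfr2b, and the series title speaks of inhibiting its signalling in cells that express Sftpc. Tamoxifen was given to the pregnant females at E14.5 and again at E15.5, and other females, handled in the same way, gave the control embryos. Genotype and litter therefore cannot be told apart. The sources used here give neither the Cre driver, the further alleles of either genotype, the gate of the sort, nor how many embryos made up a sample. The 2 populations and 2 genotypes made 4 groups of 2 arrays, 1 per sample. The design text calls replicates biological, with nothing on whether they came from separate embryos or litters.

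Collagen IV chains fold into triple helices of fixed make-up, which join into a network under every epithelium. Col4a1 and Col4a2 form the network found in nearly all basement membranes, while Col4a3, Col4a4 and Col4a5 form a more restricted one, best known from the kidney glomerulus and also present in the alveolar wall, and mutated in Alport syndrome. Laminins are trimers of an α, a β and a γ chain: Lama3 and Lamb3 belong to the laminin that anchors hemidesmosomes, and Lama5 pairs with Lamb1 or Lamb2 and with Lamc1 in the laminins of mature epithelia. In the alveolus the epithelial membrane fuses with that of the capillary, so that little matrix lies between air and blood.

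Collagen IV genes lie in pairs that are transcribed away from each other. The promoter windows of such pairs are shown because both genes of a pair are members and can be set side by side on the arrays. In RefSeq's GRCm38.p6 table, 7 of the 9 members had a window of 250 bases before to 50 after the start (Col4a3 and Lama3 had none). The window starts of Col4a1 and Col4a2 are 21 bases apart, placed so that the first bases of both transcripts overlap. The window start of Col4a4 is 72 bases from the start of Col4a3 in RefSeq's gene coordinates (82586921). In those coordinates Col4a4 itself reaches to 82587034, past the Col4a3 start, so the pair overlaps there. Col4a5 starts 1343 bases from Col4a6. Below are the window of Col4a4 (chr1:82586800-82587099, minus strand) and that of Col4a1 (chr8:11312777-11313076, minus strand), each 5′ to 3′ in the direction of the named gene, with the bases from 1 start to the other in capitals.
Col4a4: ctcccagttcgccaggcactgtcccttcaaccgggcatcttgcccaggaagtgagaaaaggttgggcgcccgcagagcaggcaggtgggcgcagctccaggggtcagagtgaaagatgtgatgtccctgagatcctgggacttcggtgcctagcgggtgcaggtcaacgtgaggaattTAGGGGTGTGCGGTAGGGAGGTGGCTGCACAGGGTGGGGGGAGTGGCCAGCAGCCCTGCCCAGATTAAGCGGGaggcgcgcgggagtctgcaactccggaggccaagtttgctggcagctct
Col4a1: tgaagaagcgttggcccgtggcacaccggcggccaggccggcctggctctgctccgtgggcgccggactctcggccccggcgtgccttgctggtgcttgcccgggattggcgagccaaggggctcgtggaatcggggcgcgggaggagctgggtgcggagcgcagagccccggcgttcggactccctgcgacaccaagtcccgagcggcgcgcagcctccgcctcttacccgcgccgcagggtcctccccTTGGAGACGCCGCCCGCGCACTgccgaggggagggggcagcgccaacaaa

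The capitals of the Col4a4 window run from base 179, the Col4a3 start of the gene coordinates on the opposite strand, to base 251, the window start of Col4a4. The Col4a4 window held 63.3% G and C and the Col4a1 window 74.0%, against a median of 52.7% over all 32851 promoters of the table. On either strand the Col4a4 window held neither GGGCGG (the GC box, in 35.7% of all promoters) nor CCAAT (37.4%). The Col4a1 window held 1 of each. The Col4a2 window, which overlaps it, held 3 GC boxes and 1 CCAAT, the Col4a5 window 1 of each, and the Lama5 window 4 GC boxes. The letters GGAATG (bound by TEAD factors) were in 14.7% of all promoters, TGANTCA (bound by AP-1) in 7.8% and CAAGTG (bound by Nkx2-1) in 13.6%. None of these 3 was in the window of any collagen IV member. Of the laminin windows, those of Lamb3, which has 2 annotated starts, held 1 GGAATG and 1 CAAGTG. The Lamb2 window held none of the 5 motifs.

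Across genes, r was 0.951 to 0.978 between replicate arrays and 0.936 to 0.951 between arrays of different populations. Markers of type I cells averaged 12.8 to 13.13 on the AECI arrays and 9.99 to 10.67 on the AECII arrays. Markers of type II cells averaged 13.64 to 13.72 in AECII, and the AECI arrays also carried them at 12.69 to 12.84, with Sftpc, the defining surfactant gene, at 15.45 to 15.65. AECI control replicate 1 and AECII control replicate 2 had a male pattern of sex-linked transcripts (Xist at 3.96 and 6.53, against 13.32 to 13.9 on the other 6 arrays). Fgfr2, the targeted gene, read 11.03 and 11.37 in AECI control, 11.07 and 11.38 in AECI experimental, 12.6 and 12.62 in AECII control, and 12.24 and 12.33 in AECII experimental. Whether its spot lies in the floxed part is not given, so these values do not check the genotype labels.

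**Figure D1:**
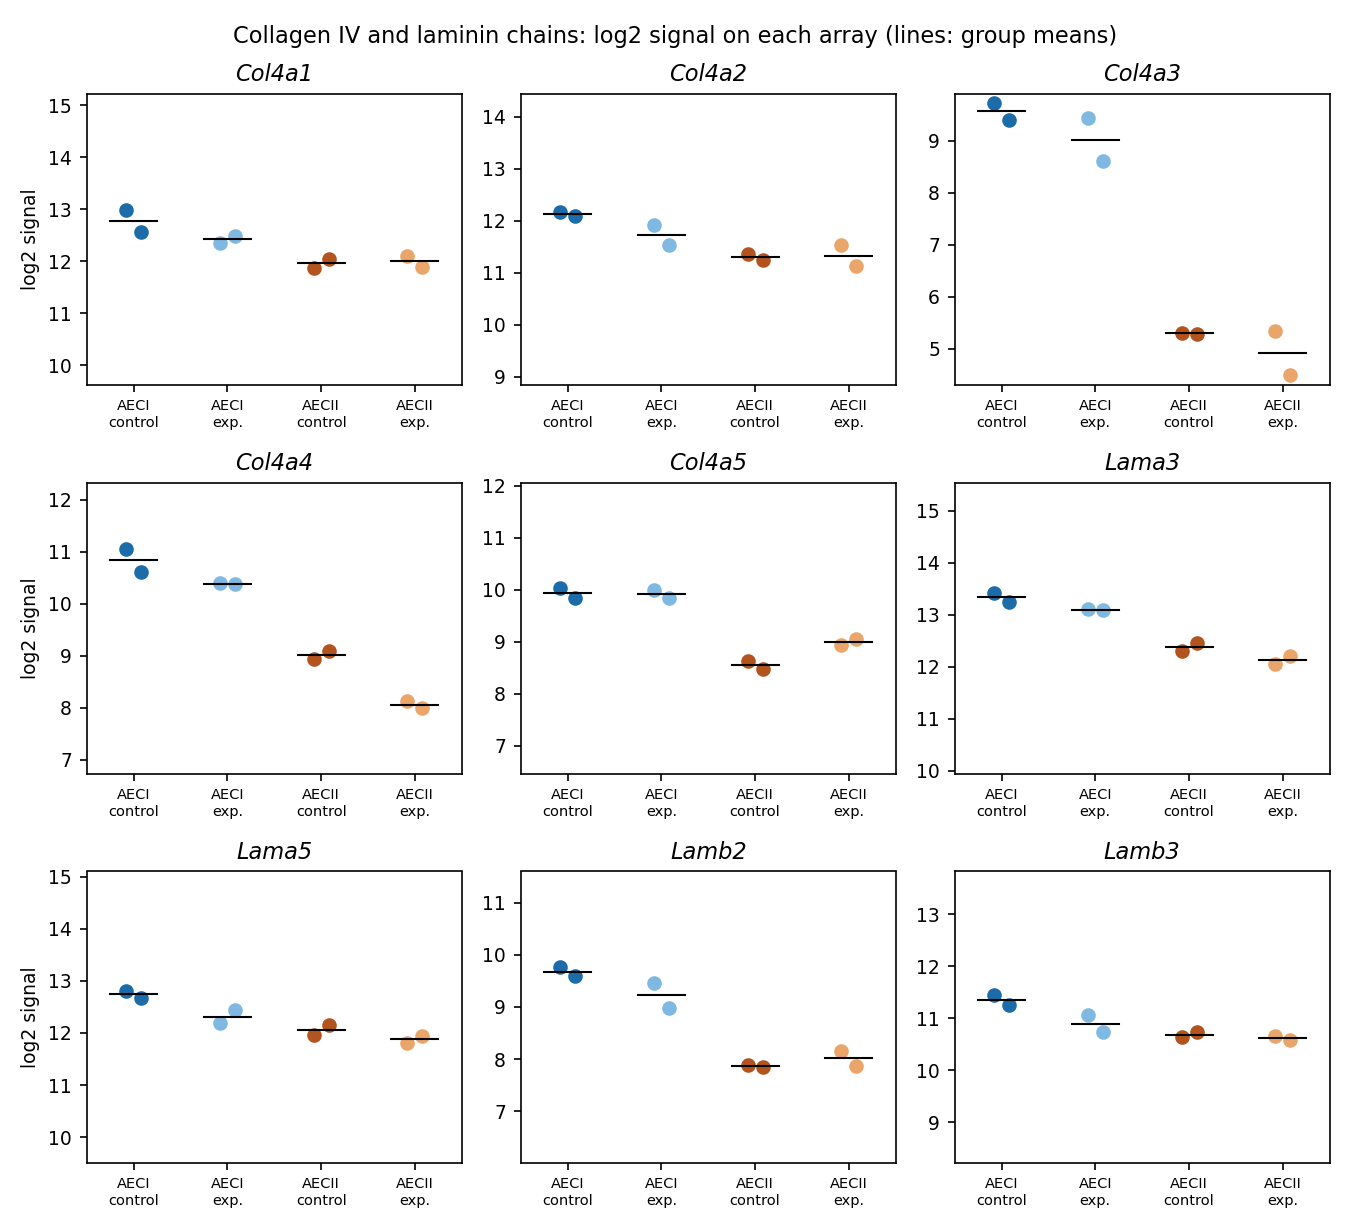
Log2 signal (y axis, 5.6 units in every panel) of each of the 9 genes on each array, by group (x axis; exp., experimental), with 2 points per group and a line at their mean. The AECI points lie above the AECII points in every panel, and the gap is widest for Col4a3.

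All 9 genes had all 4 AECI arrays above all 4 AECII arrays, a pattern found in 6.85% of all genes. The gap between the lowest AECI and the highest AECII array ran from 0.00 for Col4a2, where both read 11.54 to 2 decimals, to 3.27 for Col4a3. In bulk samples fewer cells of a type and less RNA per cell cannot be told apart. In control lungs 4 of the 9 (Col4a3, Col4a4, Col4a5 and Lamb2) were lower in AECII than in AECI in limma at an adjusted p of 0.05, where 1.53% of all genes were called lower and 1.3% higher. In experimental lungs 2 of the 9 (Col4a3 and Col4a4) were called lower, where 1.27% of all genes were called lower and 1.28% higher. No member was called higher in AECII. The median difference over the 9 was -0.96 in control and -0.92 in experimental lungs, against 0.00 and 0.01 over all genes.

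Col4a3, a chain of the restricted network, had the widest gap. It read 9.73 and 9.4 in AECI control, 9.44 and 8.61 in AECI experimental, 5.31 and 5.29 in AECII control, and 5.34 and 4.49 in AECII experimental. Its AECII arrays lay near or below the median spot (5.18). The difference of AECII from AECI was -4.26 (SE 0.41, adjusted p = 0.0107), a 19.2-fold lower signal, in control lungs. In experimental lungs it was -4.11 (SE 0.41, adjusted p = 0.0118), or 17.3-fold. A second, dimmer spot of Col4a3 gave -2.82 and -2.44, with adjusted p of 0.161 and 0.168, and 1 of its 8 values was below the lower quartile of spots (3.07).

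Col4a4, the head-to-head neighbour of Col4a3 and its partner in the same helix, read 11.06 and 10.61 in AECI control, 10.39 and 10.37 in AECI experimental, 8.94 and 9.09 in AECII control, and 8.12 and 8.0 in AECII experimental. On this spot the 4 groups formed 4 steps without overlap, as they did on the brightest spots of Lama3 and Lama5. The share of all genes with such steps was not counted. The difference of AECII from AECI was -1.82 (SE 0.25, adjusted p = 0.0253) in control lungs, a 3.52-fold lower signal. It was -2.32 (SE 0.25, adjusted p = 0.0147) in experimental lungs, or 4.98-fold. The second spot of Col4a4, of nearly equal brightness (9.35 against 9.57 in the mean over the arrays), gave larger differences of -4.51 (adjusted p = 0.00767) and -4.46 (adjusted p = 0.00704). On it the AECI groups overlapped (12.024 and 11.561 in control, 11.705 and 11.067 in experimental cells), so the step between them was seen on the brightest spot only. The size of the Col4a4 difference thus depended on the spot, while its call and direction did not.

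Col4a5, the X-linked chain that completes that helix, read 10.04 and 9.83 in AECI control, 10.002 and 9.829 in AECI experimental, 8.62 and 8.48 in AECII control, and 8.93 and 9.06 in AECII experimental. The AECI groups overlapped each other and both lay above AECII. The difference was -1.38 (SE 0.23, adjusted p = 0.0384) in control lungs, a 2.61-fold lower signal, and -0.92 (SE 0.23, adjusted p = 0.0891) in experimental lungs. Its second spot gave -1.45 (adjusted p = 0.0649) and -0.87 (adjusted p = 0.168). Leaving out both arrays of male pattern, a setting chosen after seeing the data, left 1 array in each control group and took out no experimental array. Its calls therefore cannot tell the sex pattern from the loss of arrays. With the male pattern as a covariate, limma called Col4a3 and Col4a4 in both lungs and Col4a5 in neither.

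Col4a1 and Col4a2, the chains of the general network, differed less. Col4a1 read 12.98 and 12.57 in AECI control, 12.35 and 12.49 in AECI experimental, 11.87 and 12.05 in AECII control, and 12.1 and 11.89 in AECII experimental. Col4a2 read 12.17 and 12.09, 11.92 and 11.54, 11.36 and 11.25, and 11.54 and 11.13 in the same order of groups. The AECII groups of both genes overlapped each other. The differences of AECII from AECI were -0.82 (SE 0.26, adjusted p = 0.182) for Col4a1 and -0.83 (SE 0.27, adjusted p = 0.192) for Col4a2 in control lungs. In experimental lungs they were -0.43 (95% interval -1.05 to 0.20) and -0.39 (-1.04 to 0.25). Neither gene passed the test in either lung.

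Lamb2, a laminin β chain of mature epithelial and muscle membranes, was the only laminin member past the test. It read 9.76 and 9.6 in AECI control, 9.47 and 8.98 in AECI experimental, 7.88 and 7.85 in AECII control, and 8.15 and 7.87 in AECII experimental. Both AECI groups stood apart from AECII by at least 0.83. The difference of AECII from AECI was -1.81 (SE 0.27, adjusted p = 0.0283), a 3.51-fold lower signal, in control lungs. It was -1.22 (SE 0.27, adjusted p = 0.0718) in experimental lungs.

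Lama3, the α chain of the hemidesmosomal laminin, read 13.42 and 13.25 in AECI control, 13.11 and 13.08 in AECI experimental, 12.3 and 12.45 in AECII control, and 12.06 and 12.2 in AECII experimental, 4 groups without overlap on this spot. Its differences of -0.96 (SE 0.23, adjusted p = 0.0897) in control and -0.97 (SE 0.23, adjusted p = 0.0781) in experimental lungs did not pass the test. Its second spot gave -1.06 and -0.80, also short of it, and on that spot the genotypes overlapped in both populations.

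Lamb3, its β partner, read 11.46 and 11.26, 11.06 and 10.74, 10.64 and 10.73, and 10.66 and 10.59 in AECI control, AECI experimental, AECII control and AECII experimental. The lowest AECI array was 0.02 above the highest AECII array. The differences were -0.67 (SE 0.24) and -0.28 (SE 0.24), with adjusted p of 0.228 and 0.549. On the second spot of Lamb3 the populations overlapped, with differences of -0.72 and -0.15. The dimmest had 6 of 8 arrays below the lower quartile of spots, and its differences of -0.98 and 0.69 had opposite signs.

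Lama5, the α chain of the laminin of mature alveoli, read 12.81 and 12.68, 12.19 and 12.44, 11.97 and 12.16, and 11.8 and 11.95 in that order. The gap between populations was 0.03, and the 4 groups did not overlap. The differences were -0.68 (SE 0.24, adjusted p = 0.22) and -0.44 (SE 0.24, adjusted p = 0.342), and neither passed the test.

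**Figure D2:**
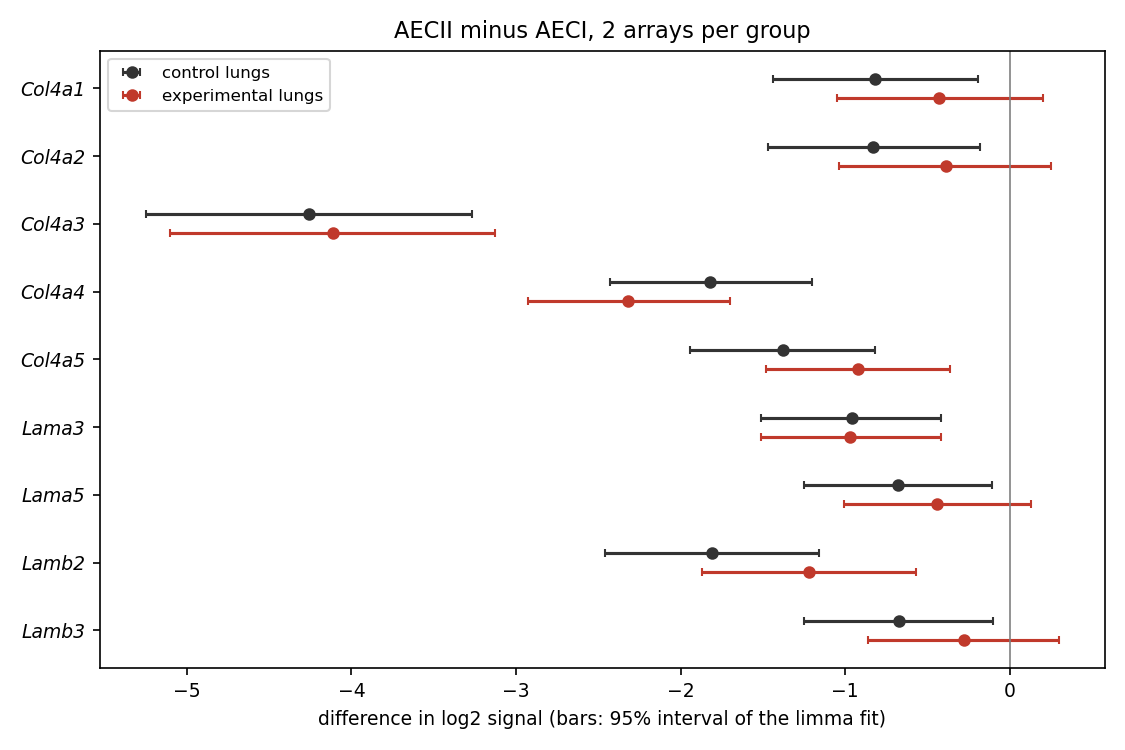
Difference in log2 signal, AECII minus AECI (x axis), for each of the 9 genes (y axis) in control (black) and experimental (red) lungs, with the 95% interval of the limma fit. All 18 points lie below 0, and the interval excludes 0 for 9 genes in control and 5 in experimental lungs before adjustment over all genes.

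**Figure D3:**
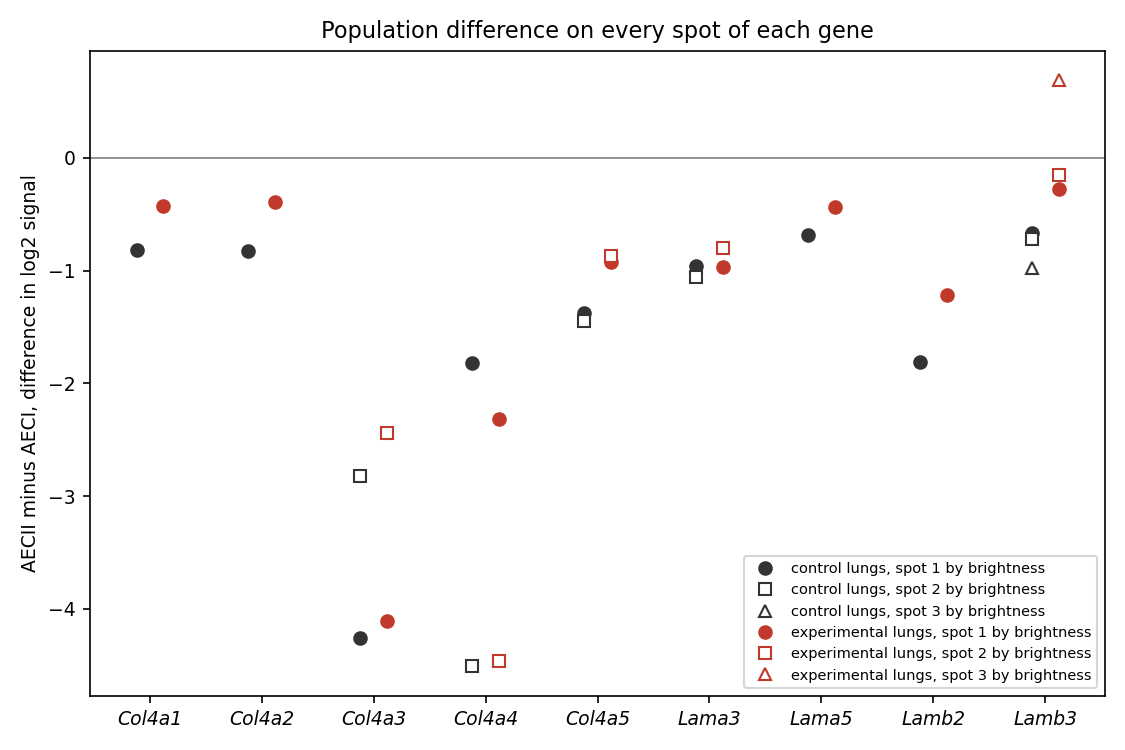
Difference in log2 signal, AECII minus AECI (y axis), on every spot of each gene (x axis), with the brightest spot filled and dimmer ones open. The spots of Col4a4 and Col4a3 differ in size but not in direction, and only the dimmest spot of Lamb3 lies above 0, in experimental lungs.

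Which members were called depended on single arrays. In control lungs no member was called without AECI control replicate 1, AECII control replicate 1 or AECII control replicate 2. Only Col4a3 was called without AECI control replicate 2 or without either AECII experimental array, and Col4a3, Col4a4 and Lamb2 were called without either AECI experimental array. In experimental lungs no member was called without AECI experimental replicate 1 or either AECII experimental array, only Col4a3 without AECI experimental replicate 2, and both Col4a3 and Col4a4 without any 1 control array. The differences themselves stayed below 0 for all 9 genes when any 1 array was left out. That of Col4a3 then ran from -4.43 to -4.09 in control and from -4.54 to -3.69 in experimental lungs.

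The genotype comparison asks what the floxed allele goes with in each population. Both arrays of male pattern were controls (AECI control replicate 1 and AECII control replicate 2), so the sex pattern was not balanced between the genotypes. In AECI all 9 members were lower in experimental than in control cells in their means, by differences of -0.54 (Col4a3) to -0.02 (Col4a5) with a median of -0.43, against 0.04 over all genes. None passed the test in limma, with adjusted p of 0.492 to 0.981, and none had an unadjusted p under 0.05, while 0.00411% of all genes (1 gene) were called and 3022 had an unadjusted p under 0.05. For 7 of the 9 both experimental arrays were below both control arrays, which held for 18.6% of all genes. The exceptions were Col4a3 and Col4a5. The tally depended on the spot: on their second spots Col4a4 and Lama3 overlapped between the genotypes and Col4a3 did not. The 95% intervals of the 9 differences lay within -1.52 and 0.54, and with 2 arrays a group a change within the interval of a gene was not excluded. Beside this, markers of mesenchyme averaged 8.71 to 8.76 in AECI experimental and 7.96 to 8.44 in AECI control, with the type I markers at 12.8 to 12.9 and 13.12 to 13.13. Club markers averaged 9.23 to 9.44 and 8.54 to 8.69 in these groups, and ciliated markers 6.05 to 6.66 and 5.56 to 5.96. AECI experimental replicate 1 stood apart in the average of the 4 basal markers (9.04, against 6.28 to 7.07 on the other AECI arrays). Krt5 (8.32 against 3.57 to 3.88), Krt14 (6.87 against 2.83 to 4.72) and Ngfr (7.1 against 4.64 to 5.78) were higher there. Trp63, the fourth, was not (13.88 against 13.9 to 13.98). The part of these lists in the members' values was not tested.

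In AECII the genotype differences were -0.95 for Col4a4, -0.39 for Col4a3, -0.24 for Lama3, -0.19 for Lama5, -0.06 for Lamb3, 0.03 for Col4a1 and for Col4a2, 0.14 for Lamb2 and 0.44 for Col4a5. None passed the test, with adjusted p of 0.532 to 0.985, and 0% of all genes were called, while 2002 genes had an unadjusted p under 0.05. Col4a4 was the only member among those (SE 0.25, unadjusted p = 0.00854, adjusted p = 0.532), and its second spot gave -0.36. Both experimental arrays were below both control arrays for 3 of the 9 (Col4a4, Lama3 and Lama5), against 19.8% of all genes. They were above them for Col4a5, and the share of all genes with that pattern was not counted. On the second spot of Lama3 the genotypes overlapped. Type I markers averaged 9.99 to 10.37 in AECII experimental and 10.45 to 10.67 in AECII control. Of the 12, 9 were below 0 and 3 above in this difference, with a median of -0.13. Aqp5 (-1.64, adjusted p = 0.529) and Rtkn2 (-1.82, adjusted p = 0.354), named for their likeness to Col4a4 in pattern, fell most. That likeness was taken over these same arrays, so their fall gives no separate evidence on Col4a4. Igfbp2, named after its value was seen, had 1.13 (adjusted p = 0.631). Endothelial markers averaged 5.3 to 5.64 and 4.84 to 4.94. The part of either in the members' values was not tested.

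The genotype difference in AECII minus that in AECI was tested directly for each member. It ran from -0.50 (Col4a4) to 0.59 (Lamb2), with adjusted p of 0.682 to 0.998 and 95% intervals within -1.37 and 1.54. No member had an unadjusted p under 0.05, and 0% of all genes were called, with 2095 at an unadjusted p under 0.05. The population difference was thus not shown to differ between control and experimental lungs for any member.

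**Figure D4:**
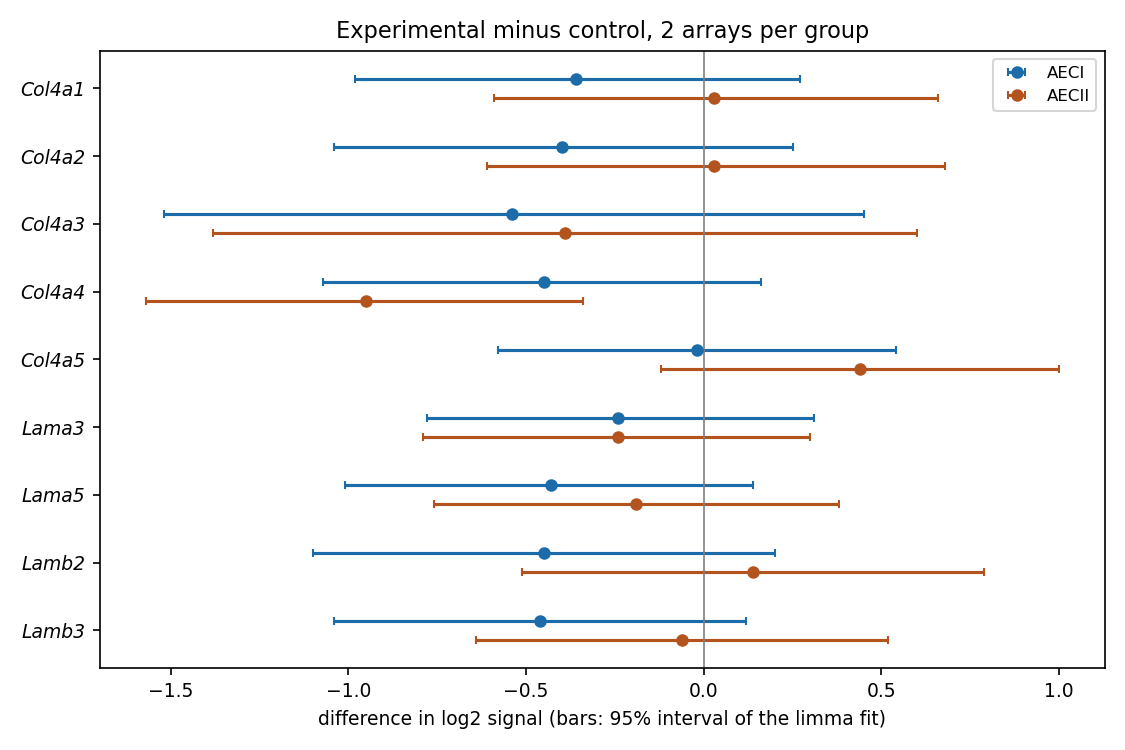
Difference in log2 signal, experimental minus control (x axis), for each of the 9 genes (y axis) in AECI (blue) and AECII (orange), with the 95% interval of the limma fit. The 9 AECI points lie at or below -0.02, and the only interval that excludes 0 before adjustment is that of Col4a4 in AECII.

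The order of the groups was alike among the members. AECI control had the highest mean in all 9 and AECI experimental the second highest. Next came AECII control for Col4a3, Col4a4, Lama3, Lama5 and Lamb3 and AECII experimental for Col4a1, Col4a2, Col4a5 and Lamb2. Those 2 AECII groups overlapped for Col4a1, Col4a2, Col4a3, Lamb2 and Lamb3. The share of all genes with AECI control highest and AECI experimental second was not counted. Of the 12 type I markers, 12 were lower in AECII than in AECI in both lungs. In AECI experimental against AECI control 11 of them were lower and 1 was higher. Over the 8 arrays the 36 pairs of members correlated with Pearson r of 0.74 to 0.98 and a median of 0.9, values that all share the gap between the populations. After subtraction of the group means, r ran from -0.77 to 0.98. The head-to-head pairs gave 0.88 (Col4a1 with Col4a2) and 0.96 (Col4a3 with Col4a4) over the arrays, and 0.18 and 0.43 after subtraction. These are descriptions over 8 arrays.

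Of 3853 genes with a mean above the median over all genes and an SD of at least 0.5, those most like each member in Pearson r over the 8 arrays were as follows. Col4a3 was most like Pmp22 (0.999), a membrane protein of myelin and epithelia, Itga3 (0.997), an integrin chain of the laminin receptor, and Pard6b (0.995), a polarity protein. Col4a4 was most like Aqp5 (0.995), the water channel of type I cells, Rtkn2 (0.993) and Tef (0.991). With Aqp5 at 13.97, 13.03, 10.03 and 8.38 in mean log2 signal in AECI control, AECI experimental, AECII control and AECII experimental, that gene fell in the order of the brightest Col4a4 spot. Col4a5 was most like Plb1 (0.994), Fras1 (0.99), a basement membrane protein of the Fraser complex, and Lrrc75a (0.988). Lamb2 was most like Frmd6 (0.996), Sorbs3 (0.996) and Mfhas1 (0.993), and Lama3 like Rgcc, Atxn1 and Tef (0.996 each). The leading genes for Col4a1, Col4a2, Lama5 and Lamb3 were Wwc1 (0.996), Dusp7 (0.966), Pfkfb3 (0.968) and Ptprm (0.986).

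The other collagen IV and laminin chains did not all follow the members. Of 7 measured, 6 were below 0 in AECII against AECI in both lungs, with medians of -0.88 and -0.84, and none of these passed the test. Of the 6, Lama1 was below the lower quartile of spots on 5 of 8 arrays, among them all AECII arrays, and Lamc3 on 4. Their differences thus rest in part on values treated here as without order, and in experimental lungs the populations overlapped for Lamc3. Lamb1, the β chain that can take the place of Lamb2, was higher in AECII. It read 9.03 and 8.75 in AECI control, 9.27 and 9.82 in AECI experimental, 10.71 and 10.78 in AECII control, and 10.55 and 10.56 in AECII experimental. Its difference was 1.86 (SE 0.28, adjusted p = 0.0285) in control and 1.01 (SE 0.28, adjusted p = 0.106) in experimental lungs, opposite in sign to that of Lamb2. Lamc1, the γ chain shared by the laminins of Lama5, had a difference of -0.88 (adjusted p = 0.1) in control lungs. In experimental lungs Lama2, the α chain best known from muscle, had the smallest p of these chains (-1.11, adjusted p = 0.0734). The call of Lamb1 in control lungs was lost without any 1 control array, without either AECII experimental array, and without both arrays of male pattern.

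Of 20 other proteins of the basement membrane, 5 were lower in AECII and 1 was higher in control lungs, and in experimental lungs 5 were lower and none higher. Beside this list and those that follow, 1.53% of all genes were called lower and 1.3% higher in control lungs. In experimental lungs these shares were 1.27% and 1.28%. Fras1 had differences of -3.25 (adjusted p = 0.0078) and -2.45 (adjusted p = 0.0137), and the heparan sulfate proteoglycan Agrn -2.75 (adjusted p = 0.0131) and -2.60 (adjusted p = 0.0162) in control and experimental lungs. The proteoglycan Hspg2 (perlecan) had -2.68 (adjusted p = 0.0147) and -2.17 (adjusted p = 0.0258), and Sparc, a collagen-binding protein, -2.07 (adjusted p = 0.0131) and -1.78 (adjusted p = 0.0204). The gene called higher in control lungs was Egfl6 (1.61, adjusted p = 0.0458), named after its value was seen. Of the 20, the median difference was -0.89 in control and -1.31 in experimental lungs.

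Of 22 enzymes that modify or export collagen, 3 were lower in AECII in control lungs and 1 in experimental lungs, with none higher. Pxdn, the peroxidase that makes the sulfilimine cross-links of collagen IV, had differences of -4.34 (SE 0.25, adjusted p = 0.00524) and -3.67 (SE 0.25, adjusted p = 0.0052). Lox, which cross-links fibrillar collagen and elastin, had -1.92 (adjusted p = 0.023) and P4ha3, a collagen prolyl hydroxylase chain, -2.66 (adjusted p = 0.0478) in control lungs. The median of the list was -0.21 and -0.31.

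Of 19 matrix receptors, 4 were lower in AECII in control and 3 in experimental lungs, with none higher. Itgb6, the integrin chain that activates latent TGF-β, had differences of -3.98 (adjusted p = 0.0154) and -4.24 (adjusted p = 0.014). Itga3 had -2.08 (adjusted p = 0.0268) and -1.87 (adjusted p = 0.0364), and Bcam, a receptor of Lama5, -1.85 (adjusted p = 0.0373) and -2.07 (adjusted p = 0.0304). Ddr1, a receptor tyrosine kinase for collagens that include collagen IV, had -1.85 (adjusted p = 0.0204) in control lungs. The median of the list was -0.46 and -0.12.

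Of 14 proteases and inhibitors, 4 were lower in AECII and 2 higher in control lungs, and 3 were lower in experimental lungs. Spock2, a proteoglycan of the testican family, had differences of -4.91 (adjusted p = 0.0112) and -5.60 (adjusted p = 0.00908). The metalloprotease inhibitor Timp2 had -3.19 (adjusted p = 0.0123) and -2.81 (adjusted p = 0.018), and Mmp11 -2.78 (adjusted p = 0.0078) and -2.41 (adjusted p = 0.0118). Htra1, a secreted serine protease, had -3.24 (adjusted p = 0.0119) in control lungs. The 2 higher genes, named after their values were seen, were Mmp15 (2.32, adjusted p = 0.0272), whose AECI control mean of 2.84 lay below the lower quartile of spots, and Bmp1 (1.41, adjusted p = 0.0341), which cleaves procollagens. Each count of these 5 lists that was above 0 in either lung fell to 0 on leaving out at least 1 of the single arrays, and on leaving out both arrays of male pattern.

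**Figure D5:**
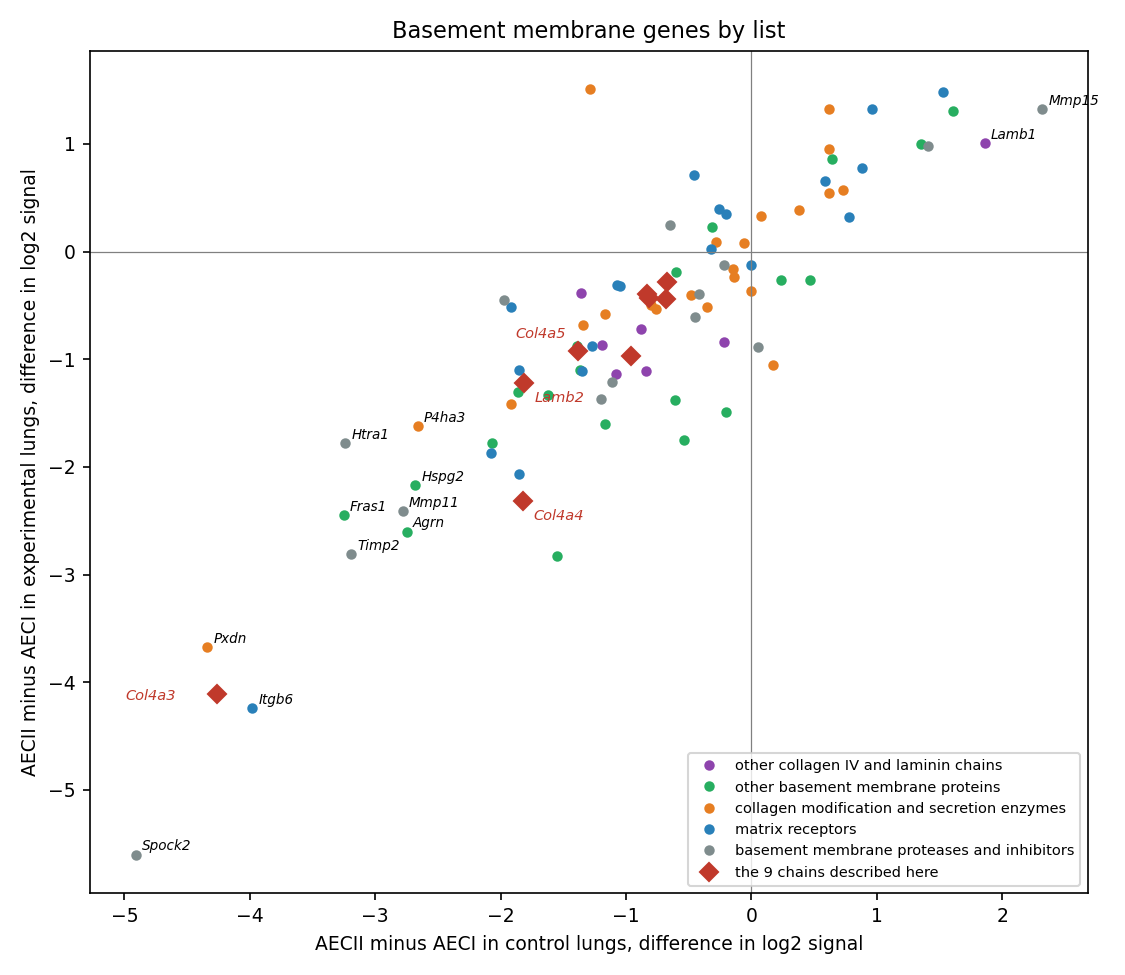
AECII minus AECI difference in log2 signal in control (x axis) and experimental (y axis) lungs for the 9 chains (red diamonds) and the genes of 5 other basement membrane lists (dots). Lamb1, at 1.86 and 1.01, lies on the other side of 0 from all 9 chains, and Col4a3 lies among the lowest genes with Pxdn, Itgb6 and Spock2.

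In the genotype comparisons no gene of the 5 lists was called. In AECI the smallest p of each list belonged to Lamb1 (0.65, adjusted p = 0.412), Frem2 (1.02, adjusted p = 0.261), Loxl1 (1.77, adjusted p = 0.241), Ddr2 (-2.23, adjusted p = 0.218) and Mmp9 (adjusted p = 0.293), whose AECI experimental mean of 2.39 lay below the lower quartile of spots, as did 5 of its 8 values. In AECII it belonged to Lama2 (-0.76, adjusted p = 0.564), Nid2 (0.89, adjusted p = 0.56), Loxl1 (1.99, adjusted p = 0.529), Ddr2 (-0.82, adjusted p = 0.658) and Mmp15 (-1.06, adjusted p = 0.564). For the difference between the genotype differences it belonged to Lamb1 (-0.85, adjusted p = 0.602), Fras1 (0.79, adjusted p = 0.599), Pxdn (0.67, adjusted p = 0.632), Ddr2 (1.40, adjusted p = 0.582) and Htra1 (1.47, adjusted p = 0.538).

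Other cell types of the lung also make collagen IV and laminins, so their markers are given beside the members. The 12 endothelial markers averaged 5.08 to 5.23 in AECI control, 4.65 to 5.06 in AECI experimental, 4.84 to 4.94 in AECII control and 5.3 to 5.64 in AECII experimental. Of them 7 had a mean below the median spot, and the defining Pecam1 read 5.15 to 6.86 over the 8 arrays. The list's median difference of AECII from AECI was -0.06 in control and 0.71 in experimental lungs. In control lungs 1 was called lower in AECII and none higher, and in experimental lungs 1 was called higher and none lower. Esam, named after its values were seen, read 8.17 to 8.99 in AECI and 6.02 to 7.19 in AECII. The 14 mesenchymal markers averaged 7.96 to 8.76 on the AECI and 7.33 to 7.82 on the AECII arrays, with Col1a1 at 10.12 to 11.6 and 9.17 to 9.6. The 7 measured mesothelial markers (Muc16 was not analysed here) averaged 8.47 to 9.21 on the AECI and 5.75 to 6.13 on the AECII arrays. In control lungs 4 of the 7 were called lower in AECII, against 1.53% of all genes. The defining Msln read 9.25 to 10.15 in AECI and 5.56 to 6.65 in AECII. The mesothelial marker Wt1 read 10.01 to 10.2 in AECI control and 10.15 to 10.3 in AECII control. Of the mesothelial markers 6 of 7 were below 0 in AECII against AECI in control lungs and 7 of 7 in experimental lungs, and of the mesenchymal markers 10 of 14 in each. The mesenchymal markers above 0 in control lungs were Tcf21 (1.06), Fn1 (0.46), Lum (0.45) and Tbx4 (0.31), named after their values were seen. The part of either list in the members' differences was not tested. Ciliated (8.63 to 10.35 against 5.56 to 6.66) and club (10.41 to 11.57 against 8.54 to 9.44) markers were higher on the AECII arrays, and they were higher in AECII experimental (9.92 to 10.35 and 11.15 to 11.57) than in AECII control (8.63 to 8.98 and 10.41 to 10.6). Immune markers averaged 8.51 to 8.66 in AECI and 8.75 to 9.05 in AECII, and basal markers 6.28 to 9.04 and 5.93 to 6.52.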

How the data were processed

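RNA of FACS-isolated AECI and AECII was amplified, labelled with Cy5 (2 µg cDNA per sample) and hybridised to single-colour arrays, 8 in all. The authors deposited log2 signals, already normalized between arrays (the log base was inferred from their range of 1.34 to 16.0). In the submitters' processing notes only limma is named, with no version. The background correction is not given in the sources used here. Sorted, the arrays differed by no more than 0.0056 at any rank, so nothing was normalized again. Such normalization fixes each array's distribution, so differences are relative to all spots. No detection call was used, and precision is limited by the number of arrays.

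Of 62976 spots, 43941 carried 1 gene symbol in GEO's platform annotation, updated through accessions and synonyms to RefSeq's GRCm38.p6, and 19035 carried none. The brightest spot on average stood for each of 24306 genes, of which 11040 had several spots. Groups and replicate numbers came from the sample titles.

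The test was limma (version 3.58.1, R 4.3.3) on 4 group means over all 8 arrays, with eBayes without trend and Benjamini-Hochberg adjustment over all genes in each of 5 contrasts, at an adjusted p of 0.05. The fit had 4 residual and 2.26 prior degrees of freedom, and intervals are at 95%. The scripts were tested on simulated data. P-values reflect only the spread between these samples, which may be technical. Members and lists were chosen with earlier results of these data known.

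The text names all members and, for the population comparisons, up to 4 called genes of largest difference per basement membrane list, or the gene of smallest p where none was called. For the other comparisons it names the gene of smallest p per list. It also draws on the first 3 genes of each marker list and up to 3 genes of most similar pattern per member. The latter skipped olfactory and vomeronasal receptors, unnamed clones and predicted genes. Alternatives were the mean of a gene's spots, other spots, other variance priors, centring on the median, a filter on dim genes, the compared groups alone, array weights, the replicate number as a block, the male pattern as a covariate, and each array left out. Tables and plots were made with Python 3.11.15, numpy 2.4.6, pandas 2.3.3 and matplotlib 3.10.9.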

Additional observations from a re-analysis of the deposited data

How the results depend on the processing

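The population differences of the 9 members kept their sign under every alternative in control lungs, and in experimental lungs under all but 2, both for Lamb3 (0.08 with the mean of its spots, 0.69 on its dimmest spot). Counts moved more. In control lungs the main fit called 4 members and 689 genes. A mean-variance trend gave 9 and 1920, genes above the median spot 5 and 1547, the male pattern as covariate 2 and 371, and the compared groups alone 0 and 0. Leaving out 1 array gave 0 to 3 members and 0 to 463 genes, and leaving out both arrays of male pattern (chosen after seeing the data) 0 and 0. A group reduced to 1 array was assumed to vary like the others. In experimental lungs the main 2 members and 618 genes became 5 and 2685 with the trend, 5 and 2266 above the median spot, 2 and 301 with the covariate, 0 and 0 in the compared groups alone, 0 to 2 and 0 to 586 without 1 array, and 0 and 0 without both arrays of male pattern. Without both arrays of male pattern each control group kept 1 array, and no array of experimental lungs was left out. For experimental lungs that fit took its spread from the same arrays as the compared groups alone, so these 2 settings are not separate. The causes of the other changes were not tested. The genotype counts over all genes, 1 in AECI and 0 in AECII, became 74 and 61 with the trend and 2 and 1 above the median spot. In AECI the count was 0 in the compared groups alone, with the covariate, without both arrays of male pattern and without any 1 array (0 to 0), and in AECII it was 1 with array weights and 0 to 0 without 1 array. No member was called in a genotype comparison or in the difference between them under any setting.

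The replicate numbers did not pair the samples (correlations of deviations between groups from -0.103 to 0.04). With the replicate block, 1 member (Col4a3) and 311 genes were called in control lungs, and 2 members and 276 genes in experimental lungs. With the AECII control numbers crossed, a pairing added after seeing the data, the counts were 1 and 215, and 2 and 200.

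Signs turned only for differences that were not called. In AECI the genotype difference of Col4a5 was 0.08 without AECI control replicate 1 and without both arrays of male pattern, and 0.07 without AECI experimental replicate 2, in a range of -0.13 to 0.08 without 1 array. In AECII that of Col4a1 was -0.05 after centring, -0.06 without AECII control replicate 1 and -0.07 without AECII experimental replicate 1, in a range up to 0.14. That of Col4a2 was -0.05 after centring, -0.02 without AECII control replicate 2 and without both arrays of male pattern, and -0.17 without AECII experimental replicate 1. That of Col4a3 was 0.04 without AECII experimental replicate 2 and -0.81 without AECII experimental replicate 1, and that of Lama3 0.09 on its second spot. That of Lamb3 was 0.24 with the mean of its spots, 0.01 with the covariate and 0.87 on its dimmest spot. The difference between the genotype differences turned for Col4a3 without 1 array (range over all arrays left out -0.28 to 0.57) and without both arrays of male pattern (-0.03). It turned for Col4a4 on its second spot (0.05), and for Lama3 with the mean of its spots (0.13), after centring (0.02), on its second spot (0.27) and without 1 array (-0.10 to 0.08).

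With 2 arrays a group and 4 residual degrees of freedom, no genotype difference of a member passed the test over all genes, and 1 of the 18 (Col4a4 in AECII) had an interval without 0. Values under the lower quartile of spots (3.07) were treated as having no order. That cut was a choice and was not tested, and no detection call was used.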
